A study of Mus musculus with 9 samples.

Results

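Cholesterol in the brain is made locally, and 32 mouse genes that make it, take it up, export it or turn it over were followed through hippocampal RNA of 3 treatment groups. They were chosen by symbol from a list drawn up with earlier results of these data known. All 32 were found among the 18474 genes of the deposited table and carried enough counts to be tested. By role they are 18 synthesis enzymes, 5 genes of the sterol sensor (SREBP) system, 1 uptake receptor, 4 genes of efflux and its LXR receptors, and 4 genes of esterification and turnover. Spans given below are on GRCm39 as deposited, and each value covers a whole gene.

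All mice were wild type, and hippocampal tissue was taken at day 30 in all groups. The KA+NBP group had received KA, taken here to be kainic acid, which activates glutamate receptors and evokes seizures in mice, together with NBP, the butylphthalide named in the series title. The KA group had received a KA injection alone, and the sham group a control treatment described in the design as sham surgery. Each group holds 3 libraries from 3 mice drawn at random. Strain, sex, age, dose and the route of injection are not given in the sources used here, so the model is defined only by agent and day.

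Synthesis starts from acetyl-CoA, passes through mevalonate and squalene, and ends with the conversion of lanosterol to cholesterol. The SREBP transcription factors switch on the synthesis genes when sterols in the endoplasmic reticulum membrane are low, while LXR receptors bind oxidised sterols and switch on export genes. Little cholesterol crosses the blood-brain barrier, so brain cells rely on their own synthesis, on exchange of lipoproteins between astrocytes and neurons, and on hydroxylation to let the surplus leave.

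In KA hippocampus 5 of the 32 genes were called higher than in sham and 1 lower, against 19.0% and 14.6% of all genes tested. By role, 0 of 18 synthesis enzymes, 1 of 5 sterol sensor genes, 1 of 4 efflux and LXR genes and 3 of 4 esterification and turnover genes were higher, and the roles were not tested against each other. Abca1, the cholesterol exporter, was 3.23 times as high in KA as in sham, Ch25h, which makes an oxysterol, 5.53 times, Srebf1, a lipogenic SREBP gene, 2.06 times, and Soat1, which esterifies cholesterol, 1.8 times. Vldlr, a lipoprotein and reelin receptor, fell to 0.789 of the sham mean. In KA+NBP hippocampus Abca1, Ch25h, Srebf1 and Soat1 fell against KA and Vldlr rose, 4 lower and 1 higher against 12.7% and 10.0% of all genes, and no member differed from sham by the test used. The calls against KA depended on the fit: with only the KA+NBP and KA libraries in it, 1 member (Soat1) was called lower and 0 higher.

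Promoters of 28 of the 32 members were matched in RefSeq (mouse GRCm38.p6 windows reaching 250 bases before to 50 after a start, 38 windows in all); Fdps, Fdft1, Sqle and Abcg1 had none. Each window was searched on both strands for a sterol regulatory element, TCACNCCAC or its reverse complement GTGGNGTGA, and for an NF-Y box, CCAAT or its reverse complement ATTGG; the motifs do not overlap each other in the windows shown. This string of the sterol regulatory element was found in 1 member, Hmgcs1, and in 1.24% of all 32851 promoters of this length. Other spellings of the element were not searched, so the other windows are not shown to lack it. The NF-Y box was found in 14 of the 18 windows of the 15 matched synthesis genes, at least 1 window in 14 of these genes, and in 37.4% of all promoter windows. The following windows, 5′ to 3′ in the direction of transcription with motif matches in capitals, show 3 synthesis genes that were highest in the same KA library and lowest in the same KA library (Hmgcs1, Idi1 and Hsd17b7) and Abca1, the exporter that rose in KA. The windows are chr13:119690101-119690400 on the plus strand for Hmgcs1, chr13:8885356-8885655 on the plus strand for Idi1, chr1:169969156-169969455 on the minus strand for Hsd17b7 and chr4:53159846-53160145 on the minus strand for Abca1.
Hmgcs1: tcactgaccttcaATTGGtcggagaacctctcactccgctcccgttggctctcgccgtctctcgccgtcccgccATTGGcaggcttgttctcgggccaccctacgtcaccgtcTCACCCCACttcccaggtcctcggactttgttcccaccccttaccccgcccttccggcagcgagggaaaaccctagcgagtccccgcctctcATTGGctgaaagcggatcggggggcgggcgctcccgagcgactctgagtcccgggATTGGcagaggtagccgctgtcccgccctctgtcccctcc
Idi1: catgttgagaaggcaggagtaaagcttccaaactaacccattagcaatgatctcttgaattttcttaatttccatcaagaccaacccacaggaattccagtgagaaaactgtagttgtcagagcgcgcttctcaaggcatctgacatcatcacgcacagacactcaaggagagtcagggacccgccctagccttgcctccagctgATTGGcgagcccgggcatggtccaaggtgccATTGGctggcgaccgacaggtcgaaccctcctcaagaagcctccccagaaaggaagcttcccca
Hsd17b7: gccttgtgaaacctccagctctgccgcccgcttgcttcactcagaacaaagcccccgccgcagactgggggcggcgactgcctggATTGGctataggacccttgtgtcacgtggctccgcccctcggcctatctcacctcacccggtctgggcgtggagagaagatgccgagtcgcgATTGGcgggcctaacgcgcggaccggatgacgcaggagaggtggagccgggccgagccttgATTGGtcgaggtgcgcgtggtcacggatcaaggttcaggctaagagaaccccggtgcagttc
Abca1: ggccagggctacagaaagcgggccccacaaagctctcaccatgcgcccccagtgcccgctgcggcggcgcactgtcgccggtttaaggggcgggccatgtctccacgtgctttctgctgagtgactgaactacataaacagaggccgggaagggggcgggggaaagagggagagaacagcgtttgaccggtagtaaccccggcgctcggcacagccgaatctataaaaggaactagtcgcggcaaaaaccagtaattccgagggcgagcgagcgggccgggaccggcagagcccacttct
The Hmgcs1 window holds 4 NF-Y boxes beside its sterol regulatory element, which starts 137 bases before the gene's start. Idi1 has 2 and Hsd17b7 has 3 NF-Y boxes, and Abca1 has no match of either motif in these letters. Windows not shown differ: Mvk, Tm7sf2 and Ebp, which were not highest in KA replicate 3, have 5, 1 and 2 NF-Y boxes. Acat2, highest in KA replicate 3 and lowest in KA replicate 1, has 0. Whether the box goes with the library pattern was not tested. A match is a string of letters and was not tested as a binding site.

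Library totals ran from 15699251 to 16374637 estimated counts, which is close to even, and no member was at 0 in any library. Levels are in CPM, counts relative to library size after TMM normalization. Means are given with the SD over 3 libraries and log2 fold changes with their standard error (SE). A change is called at an adjusted p under 0.05 by edgeR's quasi-likelihood test on all 9 libraries, with p adjusted after Benjamini and Hochberg over 14752 genes. KA+NBP replicate 2 stood apart from its group: on the first principal component, which held 72.2% of the variance, it lay at 25.8, with the KA libraries at 52.1 to 61.1 and the other KA+NBP and sham libraries at -45.0 to -29.6. Its choroid plexus markers summed to 627 CPM, against at most 48.7 CPM in any other library. For each member called in KA+NBP against KA, the log2 fold change without this library is also given. Values of the other pathway genes and of the markers are given only with it. The tissue was checked through markers of brain cells: those of neurons summed to 4722 to 6858 CPM over 8 genes in the 9 libraries.

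The share of genes called sets the background for the members. Against sham, KA hippocampus had 5 members higher and 1 lower, while 19.0% of all genes were called higher and 14.6% lower. Among the 32 members the share higher, 5 genes, is near the background and the share lower is below it. All 6 calls but that of Cyp46a1 held under each of 17 alternative settings. The KA and sham libraries did not overlap in 9 members that were higher and 3 that were lower, against 29.3% and 27.0% of all genes. For KA+NBP against KA, 1 member was called higher and 4 lower, against 10.0% and 12.7% of all genes, and the libraries did not overlap in 1 higher and 5 lower members, against 16.2% and 20.4%. With only the KA+NBP and KA libraries in the fit, 1 member (Soat1) was called lower and 0 higher, and 1065 genes were called in place of 3355. For KA+NBP against sham, 0 members were called higher and 0 lower, as was 0% of all genes in either direction; at an unadjusted p under 0.05 there were 0 members and 248 genes, and DESeq2 called 0 members and 1 gene. In that comparison 0 members lay wholly above and 6 wholly below sham, against 3.29% and 3.08% of all genes. The KA libraries enter both of the first comparisons, so a gene that is high in KA tends to be called in opposite directions in them.

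**Figure D1:**
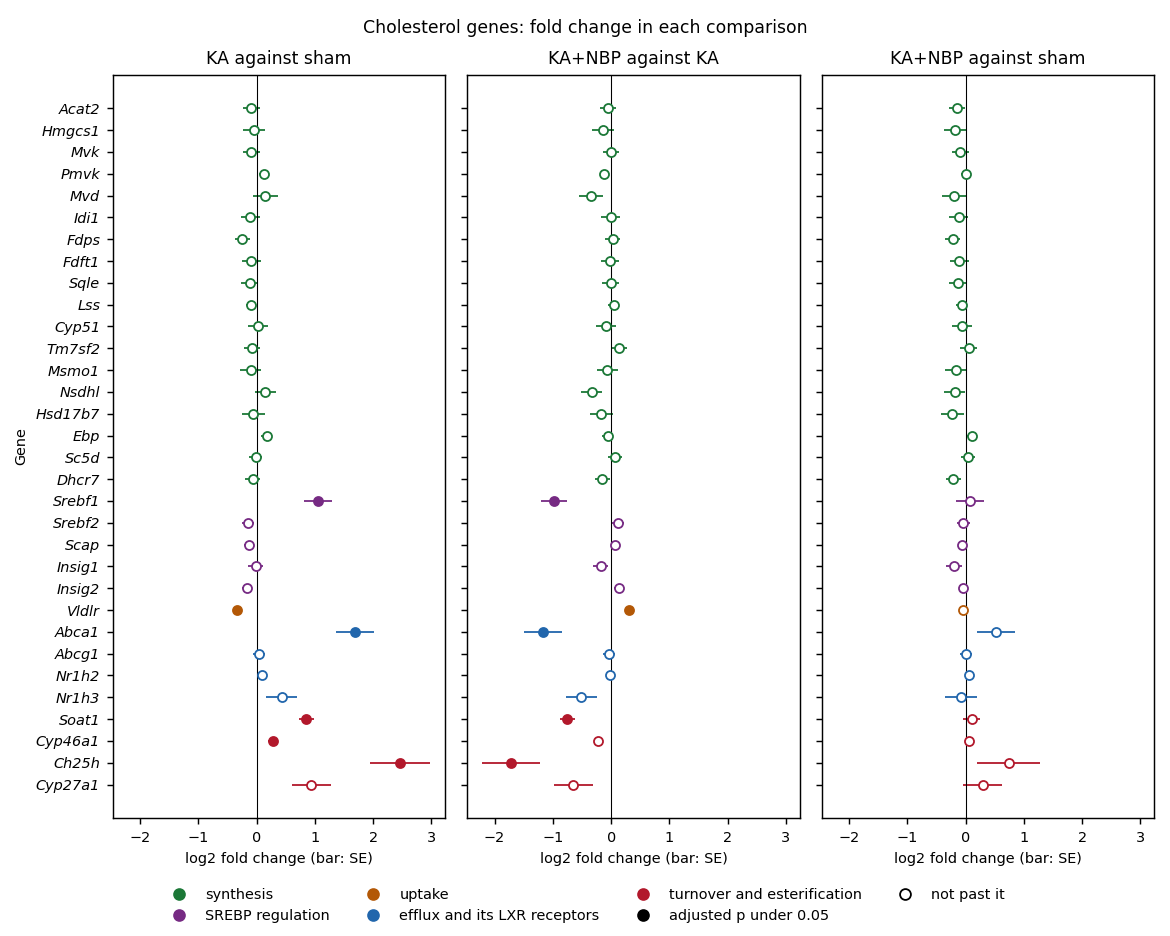
Log2 fold change with SE (x axis) of each of the 32 members (y axis, by role) in KA against sham, KA+NBP against KA and KA+NBP against sham, from 3 libraries per group; filled points are called. Abca1, Ch25h, Srebf1 and Soat1 lie right of 0 in KA against sham and left of 0 in KA+NBP against KA, Vldlr lies the other way, and the 18 synthesis genes stay between -0.35 and 0.17 in the first 2 comparisons.

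Among sterol sensor genes Srebf1 (chr11:60089910-60113407) was the 1 called. This gene encodes SREBP1, which is best known for driving fatty acid synthesis and is itself a target of LXR. Srebf1 was at 55.7, 96.7 and 44.6 CPM in KA+NBP, at 137, 129 and 123 CPM in KA, and at 61.9, 68.8 and 57.6 CPM in sham. Every KA library was above every other one, and KA+NBP replicate 2 lay between the groups. Srebf1 rose in KA against sham by a log2 fold change of 1.05 (SE 0.24, adjusted p = 0.0103) and fell in KA+NBP against KA by 0.98 on the log2 scale (SE 0.23, adjusted p = 0.0198). The second call was lost without KA replicate 1 (adjusted p = 0.0559), KA replicate 2 (0.0501) or KA+NBP replicate 1 (0.0761), and without KA+NBP replicate 2 its log2 fold change was -1.37.

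The other 4 sensor genes were not called in any comparison. Srebf2 encodes the SREBP that mainly drives cholesterol synthesis, and was at 253, 229 and 237 CPM in KA+NBP, at 198, 200 and 268 CPM in KA, and at 254, 240 and 245 CPM in sham. KA replicate 3 was the highest and the other KA libraries the lowest of the 9. Its log2 fold change in KA against sham was -0.15 (SE 0.11, adjusted p = 0.337), and without KA replicate 3 it was -0.31 (adjusted p = 0.0191). Without that library Srebf2 was also called higher in KA+NBP against KA (log2 fold change 0.27, adjusted p = 0.0437). Scap, which escorts SREBP to the Golgi, had a log2 fold change of -0.13 (SE 0.08, adjusted p = 0.243) in KA against sham, with 111, 113 and 103 CPM in KA and 122, 117 and 119 CPM in sham. Insig1, which retains Scap in the endoplasmic reticulum, had -0.02 (SE 0.13, adjusted p = 0.908), and Insig2, a second retention protein, had -0.17 (SE 0.08, adjusted p = 0.132). Insig1 was at 47.1 to 54.9 CPM in KA+NBP, 49.7 to 70.7 CPM in KA and 56.9 to 63.3 CPM in sham, and Insig2 at 40.5 to 49.0 CPM in KA+NBP, 40.2 to 43.4 CPM in KA and 45.4 to 48.2 CPM in sham. For Insig2 all KA libraries were below sham. Without KA+NBP replicate 2, Insig2 was called lower in KA against sham (adjusted p = 0.0387) and higher in KA+NBP against KA (log2 fold change 0.21, adjusted p = 0.0272).

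Vldlr (chr19:27190070-27231631), the 1 uptake gene on the list, binds lipoproteins and reelin on neurons. It was at 112, 109 and 99.2 CPM in KA+NBP, at 88.6, 88.1 and 84.1 CPM in KA, and at 103, 113 and 114 CPM in sham. All 3 KA libraries were below the 6 others, and KA+NBP and sham overlapped. Vldlr averaged 86.9 ± 2.46 CPM in KA and 110 ± 6.05 CPM in sham (SD, n = 3 each), and the log2 fold change was -0.34 (SE 0.07, adjusted p = 0.00646). It rose in KA+NBP, at 107 ± 6.61 CPM, against KA by 0.30 (SE 0.07, adjusted p = 0.0173). That call was lost when KA replicate 3 was left out (adjusted p = 0.0553) or KA+NBP replicate 1 (0.0678), and without KA+NBP replicate 2 the log2 fold change was 0.28. Lrp1, a lipoprotein receptor outside the 32 members, went the other way. It rose in KA against sham by a log2 fold change of 0.34 (SE 0.07, adjusted p = 0.00637). In KA+NBP against KA its log2 fold change was -0.28 (SE 0.07, adjusted p = 0.0202). The receptors Lrp8 and Scarb1, also outside the members, were not called in either comparison.

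Abca1 (chr4:53030789-53159988) moves cholesterol and phospholipid out of the cell onto apolipoproteins and is a textbook LXR target. It was at 59.7, 134 and 49.9 CPM in KA+NBP, at 205, 184 and 158 CPM in KA, and at 47.0, 61.5 and 60.9 CPM in sham. The 3 KA libraries were above all others, and KA+NBP replicate 2 was far above the other KA+NBP libraries. Abca1 rose in KA against sham by a log2 fold change of 1.69 (SE 0.33, adjusted p = 0.00562), and the call held under all 17 alternatives, at adjusted p up to 0.0303. In KA+NBP it fell against KA by 1.17 on the log2 scale (SE 0.32, adjusted p = 0.0307). That call held under 8 of the 17 alternatives, with adjusted p from 1.96e-05 to 0.108. Among the libraries left out singly, it was lost without any of the 3 KA libraries (adjusted p = 0.0832, 0.0714 and 0.0590 for replicates 1, 2 and 3), without KA+NBP replicate 1 (0.108) or 3 (0.0801), and without sham replicate 2 (0.0520) or 3 (0.0506). Without KA+NBP replicate 2 the log2 fold change was -1.73.

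The rest of the efflux group was not called. Abcg1, a transporter that passes cholesterol to lipoprotein particles and is also an LXR target, was at 91.7, 90.4 and 89.3 CPM in KA+NBP, at 103, 98.0 and 77.4 CPM in KA, and at 89.3, 90.6 and 91.6 CPM in sham. The KA libraries spread on both sides of the others, and the log2 fold change in KA against sham was 0.04 (SE 0.10, adjusted p = 0.791). Nr1h2, which encodes LXR beta, had 0.09 (SE 0.07, adjusted p = 0.374), with overlapping groups at 33.9 to 36.8 CPM in KA+NBP, 33.9 to 38.4 CPM in KA and 32.7 to 34.7 CPM in sham. Nr1h3, which encodes LXR alpha, was low, at 1.65, 3.42 and 2.01 CPM in KA+NBP, at 3.48, 2.94 and 3.70 CPM in KA, and at 2.49, 2.55 and 2.45 CPM in sham. All 3 KA libraries were above the sham libraries, but the log2 fold change of 0.43 (SE 0.27) had an adjusted p of 0.243. Between KA+NBP and KA it was -0.51 (SE 0.27, adjusted p = 0.199), and without KA+NBP replicate 2 it was -0.88 (adjusted p = 0.00793).

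Soat1 (chr1:156255678-156301898) turns free cholesterol into esters for storage in lipid droplets. It was at 22.3, 33.8 and 26.0 CPM in KA+NBP, at 42.6, 47.9 and 47.8 CPM in KA, and at 26.5, 25.9 and 24.4 CPM in sham. No KA library overlapped another group, and KA+NBP replicate 2 was the highest of the rest. Soat1 rose in KA against sham by a log2 fold change of 0.85 (SE 0.13, adjusted p = 0.00295) and fell in KA+NBP against KA by 0.75 on the log2 scale (SE 0.13, adjusted p = 0.00722). The second call held under 16 of the 17 alternatives, and without KA+NBP replicate 2 the log2 fold change was -0.93.

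Ch25h (chr19:34451183-34458947) makes an oxysterol that restrains SREBP processing. Per transcript length it was the lowest of the 32 members in sham. It was at 0.508, 2.02 and 2.07 CPM in KA+NBP, at 5.37, 5.46 and 4.38 CPM in KA, and at 0.686, 0.497 and 1.57 CPM in sham. These rest on 8, 33 and 33 counts in KA+NBP, 91, 89 and 71 in KA, and 11, 8 and 25 in sham, and the KA libraries lay apart from both other groups. Ch25h rose in KA against sham by a log2 fold change of 2.46 (SE 0.52, adjusted p = 0.00785) and fell in KA+NBP against KA by 1.72 on the log2 scale (SE 0.49, adjusted p = 0.0352). The second call held under 9 of 17 alternatives. It was lost without any KA library (adjusted p = 0.0866, 0.0895 and 0.0718), without KA+NBP replicate 1 (0.0721) or 3 (0.0572), and without sham replicate 1 (0.0559). Without KA+NBP replicate 2 the log2 fold change was -1.96.

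Cyp46a1 (chr12:108300525-108328497) hydroxylates cholesterol in neurons into a form that leaves the brain. It was at 157, 144 and 159 CPM in KA+NBP, at 164, 194 and 179 CPM in KA, and at 154, 152 and 136 CPM in sham. The 3 KA libraries were above both other groups. The rise in KA against sham was a log2 fold change of 0.28 (SE 0.08, adjusted p = 0.0269), and it lost the call without any 1 sham library (adjusted p = 0.0558, 0.0685 and 0.108 for replicates 1, 2 and 3), without KA replicate 2 (0.0927) or without KA replicate 3 (0.0643). The log2 fold change in KA+NBP against KA was -0.22 (SE 0.08), with an adjusted p of 0.0754.

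Cyp27a1, a mitochondrial sterol hydroxylase, was at 3.31, 5.38 and 2.57 CPM in KA+NBP, at 6.26, 7.30 and 4.13 CPM in KA, and at 2.18, 3.79 and 3.26 CPM in sham. The KA libraries were above the sham libraries. The log2 fold change in KA against sham was 0.94 (SE 0.33), with an adjusted p of 0.0557, and 8 of the 17 alternatives called it, at adjusted p from 0.00359 to 0.175 over all 17. Between KA+NBP and KA it was -0.65 (SE 0.33, adjusted p = 0.178), and without KA+NBP replicate 2 it was called lower (adjusted p = 0.0218).

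**Figure D2:**
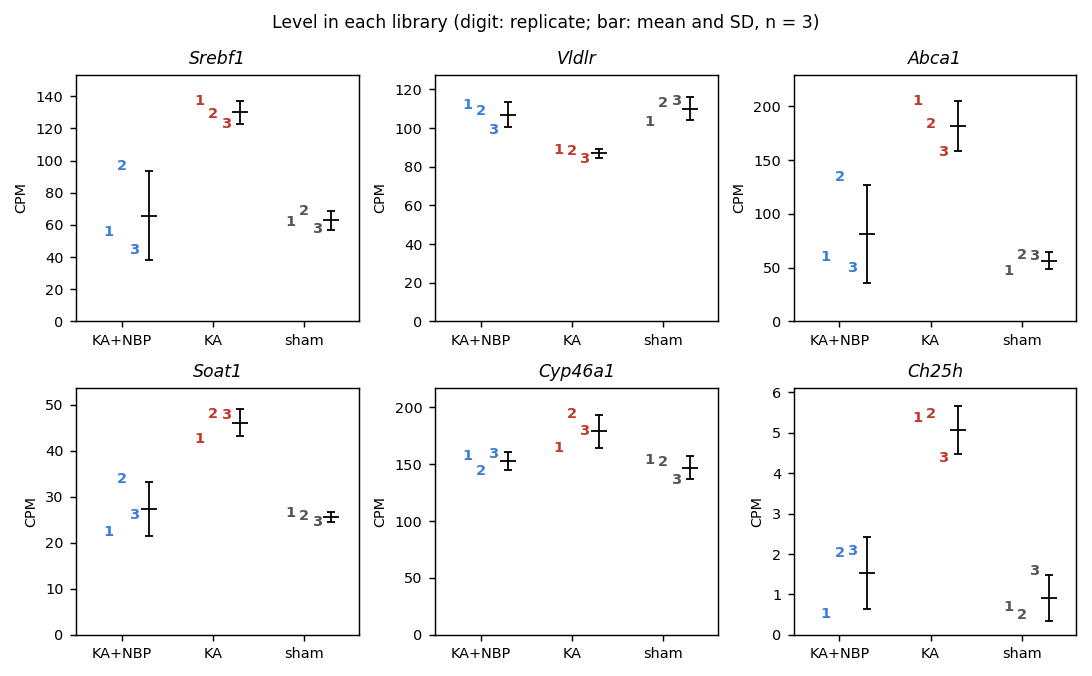
Level in CPM (y axis) of the 6 members called in KA against sham, in each library of KA+NBP, KA and sham (x axis); a digit is the replicate and the bar is the mean and SD (n = 3). For Abca1 the KA libraries sit at 158 to 205 CPM, above all others, and KA+NBP replicate 2 at 134 CPM, while for Vldlr the KA libraries sit lowest, at 84.1 to 88.6 CPM.

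None of the 18 synthesis genes was called in any of the 3 comparisons, and 0 of them had an unadjusted p under 0.05 in each. DESeq2 called 0 of them as well. In KA against sham the log2 fold changes ran from -0.25 for Fdps, which makes farnesyl diphosphate, to 0.17 for Ebp, a sterol isomerase. Their median was -0.07 beside 0.01 over all genes tested. The SEs were 0.08 to 0.21, and with these SEs the changes of the 18 genes could not be told from 0. Between KA+NBP and KA they ran from -0.35 for Mvd, which makes isopentenyl diphosphate, to 0.13, with a median of -0.06 beside -0.01. In KA+NBP against sham 15 of the 18 were below 0, as were 7074 of the 14752 genes tested. The median of the 18 was -0.12 beside 0.01 over all genes tested. The KA+NBP libraries were all below the sham libraries for 5 of the 18 (Fdps, Msmo1, Nsdhl, Hsd17b7 and Dhcr7), against 3.08% of all genes. Dhcr7 is the enzyme of the final reduction to cholesterol.

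The synthesis genes had their extreme values in the same library to differing degrees in the 3 groups. KA replicate 3 was the highest KA library for 15 of 18 synthesis genes, the exceptions being Mvk, Tm7sf2 and Ebp, whereas it was the highest for 35.9% of all genes tested. KA replicate 1 was the lowest for 14 of the 18, and it was the lowest for 33.3% of all genes. In KA+NBP, replicate 2 was the lowest for 10 of the 18 (41.6% of all genes) and replicate 1 the highest for 9 (27.8%). In sham, replicate 3 was the lowest for 12 and the highest for 0 of the 18 (32.8% and 32.3% of all genes), and replicate 1 was the highest for 10 (33.0%). The distance differed: the median log2 ratio to the other libraries of the group was 0.49 for KA replicate 3 and -0.42 for KA replicate 1, against -0.12 to 0.11 for the KA+NBP libraries and -0.10 to 0.08 for the sham libraries. The genes with both extremes of KA include Hmgcs1, which acts at the start of the pathway, and Msmo1 and Hsd17b7, which act on methylated sterols near its end. Genes of 1 pathway in the same libraries share the mouse, so their agreement is no set of independent replicates.

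Hmgcs1 was at 261, 238 and 212 CPM in KA+NBP, at 193, 238 and 352 CPM in KA, and at 276, 282 and 254 CPM in sham. Fdft1, squalene synthase, was at 86.7, 79.6 and 89.1 CPM in KA+NBP, at 66.9, 78.5 and 113 CPM in KA, and at 97.2, 87.4 and 91.1 CPM in sham. For both, KA held the lowest and the highest of the 9 libraries. Msmo1, a methylsterol oxidase, was at 73.2, 69.3 and 73.0 CPM in KA+NBP, at 51.8, 76.8 and 96.9 CPM in KA, and at 79.0, 86.5 and 76.8 CPM in sham. Hsd17b7, a sterol ketone reductase, was at 21.2, 17.5 and 21.3 CPM in KA+NBP, at 16.1, 21.0 and 30.6 CPM in KA, and at 24.8, 23.0 and 22.7 CPM in sham. Again KA spanned the range of the other groups.

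Cyp51, lanosterol demethylase, was at 65.3, 72.0 and 67.2 CPM in KA+NBP, at 55.8, 65.0 and 96.7 CPM in KA, and at 72.7, 73.4 and 67.9 CPM in sham. Sqle, squalene epoxidase, was at 61.5, 52.8 and 54.2 CPM in KA+NBP, at 46.4, 51.2 and 72.6 CPM in KA, and at 63.1, 63.2 and 58.0 CPM in sham. Summed over the 18 genes, synthesis stood at 958, 908 and 896 CPM in KA+NBP, at 764, 920 and 1222 CPM in KA, and at 1030, 1024 and 962 CPM in sham. The median coefficient of variation of the 18 genes was 8.58% in KA+NBP, 22.0% in KA and 5.39% in sham, beside 12%, 8.99% and 6.10% over all genes tested. The synthesis genes spread most in KA, while all genes spread most in KA+NBP. Without KA replicate 3, Fdft1 (log2 fold change -0.34, adjusted p = 0.0344) and Sqle (-0.33, adjusted p = 0.0340) were called lower in KA against sham. Without KA replicate 1, Nsdhl, a sterol dehydrogenase, was called lower in KA+NBP against KA (-0.52, adjusted p = 0.0408).

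**Figure D3:**
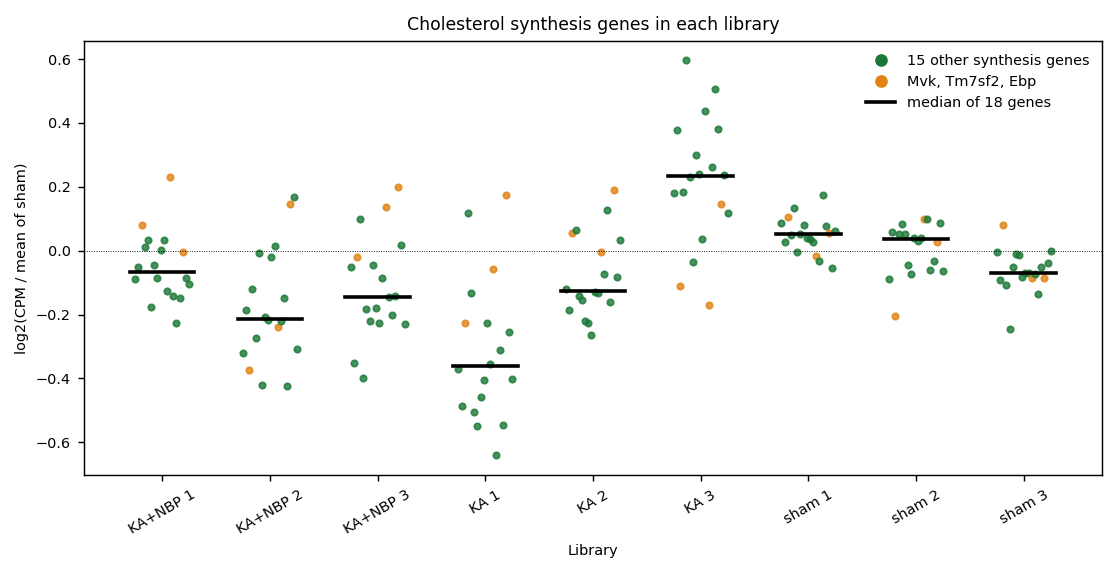
Log2 of the CPM over the mean of the sham libraries (y axis) for 18 synthesis genes in each library (x axis), with the median as a black line. In KA replicate 1 the median is -0.36 and in KA replicate 3 it is 0.23, orange points are the 3 genes that were not highest in KA replicate 3 (Mvk, Tm7sf2 and Ebp), and the medians of the KA+NBP libraries lie between -0.21 and -0.07.

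The remaining synthesis genes, by step, gave no call. Acat2, which forms acetoacetyl-CoA, was at 26.5 to 31.9 CPM in KA+NBP, 25.6 to 37.5 CPM in KA and 31.1 to 35.1 CPM in sham; its counts carry fractions in all 9 libraries as RSEM gives for reads divided between genes, so its level is uncertain. Mvk, mevalonate kinase, was at 13.0 to 17.8, 14.4 to 17.5 and 14.6 to 18.1 CPM in KA+NBP, KA and sham. Pmvk, the next kinase, was at 25.1 to 29.2, 28.5 to 31.0 and 25.3 to 28.3 CPM in KA+NBP, KA and sham, with the KA libraries above sham. Pmvk, Tm7sf2, Fdft1, Nsdhl, Srebf1 and Nr1h3 each overlap 1 neighbouring gene by the deposited spans, and whether counting used strand is not given in the sources used here, so reads of the overlap may be split between them. Idi1, which isomerises isopentenyl diphosphate, was at 51.0 to 57.7 CPM in KA+NBP, 40.8 to 68.0 CPM in KA and 55.9 to 60.1 CPM in sham. Lss, lanosterol synthase, was at 36.1 to 43.2, 36.1 to 43.3 and 40.2 to 43.3 CPM in KA+NBP, KA and sham, and Sc5d, a sterol desaturase, was at 76.3 to 90.9, 67.8 to 95.4 and 78.0 to 86.0 CPM in KA+NBP, KA and sham. Acat2, Idi1 and Sc5d ranged most widely in KA.

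Fdps was at 30.0 to 39.0 CPM in KA+NBP, 27.5 to 39.2 CPM in KA and 39.0 to 41.7 CPM in sham. Mvd was at 13.4 to 18.1 CPM in KA+NBP, 16 to 26.7 CPM in KA and 14.9 to 19.4 CPM in sham, and Nsdhl was at 21.1 to 22.3 CPM in KA+NBP, 19.9 to 35.1 CPM in KA and 22.5 to 27.9 CPM in sham. For Mvd and Nsdhl the high end of KA was replicate 3. Dhcr7 was at 32.0 to 36.8 CPM in KA+NBP, 30.0 to 43.0 CPM in KA and 37.9 to 41.3 CPM in sham. Ebp, at 14.6 to 16.8 CPM in KA+NBP, 16.2 to 16.7 CPM in KA and 13.8 to 15.2 CPM in sham, and Tm7sf2, a sterol reductase, at 9.17 to 12.7 CPM in KA+NBP, 9.62 to 10.8 CPM in KA and 10.2 to 11.6 CPM in sham, did not share the high value of KA replicate 3.

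Levels between genes can be compared only per transcript length. By the deposited TPM, Hmgcs1 at 206 and Cyp46a1 at 184 TPM were the highest members in sham, followed by Srebf2 at 136 and Msmo1 at 134 TPM. Cyp27a1 at 4.43, Nr1h3 at 4.16 and Ch25h at 2.08 TPM were the lowest. Abca1 averaged 20.4 ± 12.1 TPM in KA+NBP, 43.0 ± 6 TPM in KA and 14.1 ± 2.09 TPM in sham (SD, n = 3 each), and Cyp46a1 averaged 191 ± 5.63, 213 ± 16.5 and 184 ± 12.3 TPM in KA+NBP, KA and sham.

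Other genes of sterol handling were taken from a list of 21. In KA against sham 5 were called higher and 1 lower, near the 19.0% and below the 14.6% of all genes, with a median log2 fold change of 0.12, and in KA+NBP against KA 1 was called higher and 5 lower, against 10.0% and 12.7% of all genes, with a median of -0.17. Npc2, which carries cholesterol out of lysosomes, was at 48.4, 91.3 and 46.2 CPM in KA+NBP, at 154, 160 and 158 CPM in KA, and at 47.6, 52.0 and 43.9 CPM in sham, a log2 fold change of 1.72 in KA against sham (SE 0.23, adjusted p = 0.00175). Mylip, which degrades lipoprotein receptors, had 0.64 (SE 0.09, adjusted p = 0.00192), Lipa, lysosomal acid lipase, had 0.84 (SE 0.13, adjusted p = 0.00289), and Lcat, which esterifies cholesterol in lipoproteins, had 0.59 (SE 0.11, adjusted p = 0.00590). Of the 12 fatty acid synthesis genes that answer to SREBP1 and LXR, 4 were called higher and 0 lower in KA against sham, against 19.0% and 14.6% of all genes, with a median of 0.17. In KA+NBP against KA 0 of them were higher and 2 lower, against 10.0% and 12.7% of all genes, with a median of -0.16. Thrsp, a lipogenic protein, had 0.81 (SE 0.16, adjusted p = 0.00570), Elovl5, a fatty acid elongase, 0.81 (SE 0.21, adjusted p = 0.0186), Fads2, a desaturase, 0.42 (SE 0.13, adjusted p = 0.0292), and Scd2, the brain stearoyl-CoA desaturase, 0.51 (SE 0.16, adjusted p = 0.0395) in KA against sham. Of either list 0 genes were called in KA+NBP against sham.

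Markers of several cell types moved between the same groups. Beside all marker counts that follow, 19.0% of all genes were called higher and 14.6% lower in KA against sham. In KA+NBP against KA the shares were 10.0% and 12.7%. Of 8 microglia markers, 7 were called higher in KA against sham and 7 lower in KA+NBP against KA. Their summed level was 350, 654 and 327 CPM in KA+NBP, 1274, 1311 and 1281 CPM in KA, and 349, 415 and 388 CPM in sham. Of 8 astrocyte markers, 7 were called higher in KA against sham and 6 lower in KA+NBP against KA. They summed to 2106 to 4962 CPM in KA+NBP, 7387 to 8834 CPM in KA and 2123 to 2361 CPM in sham. Much of that sum was Gfap, at 313, 2321 and 314 CPM in KA+NBP, 4379 to 5655 CPM in KA and 316 to 391 CPM in sham. In KA against sham the 8 log2 fold changes ran from 0.28 (Gja1, not called) to 3.82 (Gfap), with a median of 0.90. KA+NBP replicate 2 was highest of its group for both sums, as it was for Abca1, Srebf1 and Soat1. Other called members differed. Ch25h was highest in KA+NBP replicate 3, at 2.07 CPM beside 2.02 CPM in replicate 2. Cyp46a1 was also highest in replicate 3, at 159 CPM beside 144 CPM in replicate 2. Vldlr, which fell in KA, was lowest in replicate 3, at 99.2 CPM beside 109 CPM in replicate 2.

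Of 8 neuron markers, 5 were lower in KA against sham, and 4 were higher in KA+NBP against KA, at 5486 to 6848 CPM in KA+NBP, 4722 to 5370 CPM in KA and 6468 to 6858 CPM in sham. Oligodendrocyte markers, 1 of 8 higher in KA against sham, were at 3373 to 6877 CPM in KA+NBP, 5090 to 6403 CPM in KA and 3932 to 5929 CPM in sham. Of 5 oligodendrocyte precursor markers 4 were higher in KA against sham, at 239 to 277 CPM in KA+NBP, 320 to 404 CPM in KA and 240 to 273 CPM in sham. Of 6 endothelium markers 4 were higher, at 123 to 189 CPM in KA+NBP, 191 to 217 CPM in KA and 138 to 156 CPM in sham. Choroid plexus markers were at 28.5, 627 and 31.8 CPM in KA+NBP, 20.5 to 25.2 CPM in KA and 35.4 to 48.7 CPM in sham; Ttr alone was at 553 CPM in KA+NBP replicate 2. Of the 5 tested, 1 (Kl) was called lower in KA against sham and higher in KA+NBP against KA. Kl was at 26.1, 41.0 and 30.1 CPM in KA+NBP, 9.03, 10.6 and 11.0 CPM in KA and 26.8, 24.6 and 31.7 CPM in sham. Kl did not follow Ttr, which was at 1.4 and 0.691 CPM in KA+NBP replicates 1 and 3, so Kl made up most of the marker sum there. Ttr averaged 11.4 CPM in KA and 11.3 CPM in sham, so the lower sum in KA lay mostly in Kl. Kcne2, on that list, was at 0 in 1 library of each group and was not tested, and 0 other markers were at 0 in any library. In bulk tissue fewer cells of a type and less RNA per cell cannot be told apart, and the part of these shifts in the changes of Abca1, Soat1, Ch25h, Srebf1 and Vldlr was not tested.

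**Figure D4:**
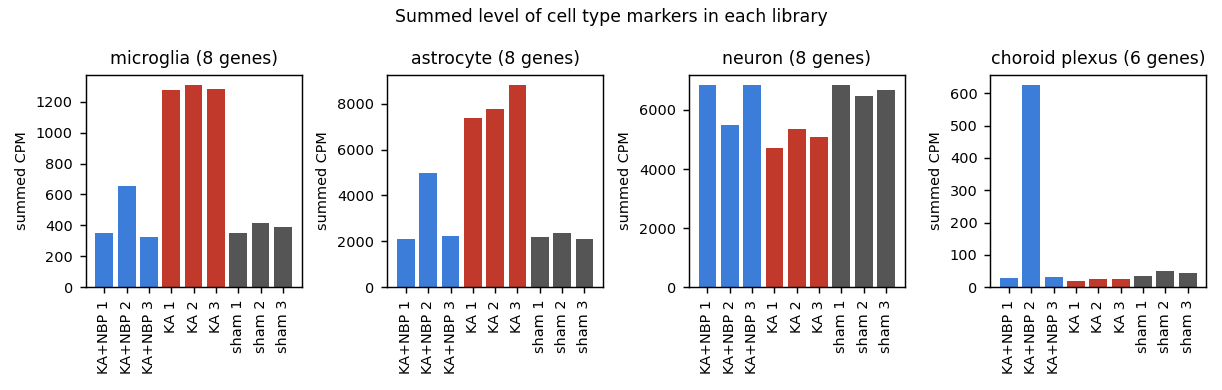
Summed CPM of the microglia, astrocyte, neuron and choroid plexus markers (y axis, from 0) in each library of KA+NBP, KA and sham (x axis), 1 bar per library. Microglia markers sum to 350, 654 and 327 CPM in KA+NBP, 1274 to 1311 CPM in KA and 349 to 415 CPM in sham, and the choroid plexus panel shows 627 CPM in KA+NBP replicate 2.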

How the data were processed

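RNA of 9 hippocampal samples was measured in 3 groups of 3 mice. The authors deposited, per gene and library, estimated counts with FPKM and TPM beside them. RSEM 1.3.1, Bowtie2, DESeq2 1.4.5 and GRCm39 are named in the submitters' processing notes, without their roles. The deposited counts carry a fraction in 5.65 to 6.61% of values per library, as RSEM gives for reads divided between genes, and were rounded. The FPKM values that the authors deposited, relative to length and depth, served in an alternative with limma 3.58.1 on log2(FPKM + 1). TPM values as the authors deposited them served only to set levels of different genes side by side.

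Counts were fitted in R 4.3.3 with edgeR 4.0.16: filterByExpr kept 14752 genes, TMM factors ran from 0.975 to 1.04, all 9 libraries entered 1 fit with a mean per group, and the quasi-likelihood F test was adjusted by Benjamini-Hochberg over all genes tested at a threshold of 0.05. The SE is the absolute log2 fold change divided by the square root of F. The procedure was tested on simulated data. Alternatives were RLE size factors, DESeq2 1.42.0, no filter on low counts, limma on FPKM, limma-voom with library weights, the 2 groups compared alone, the replicate block and leaving out each library; the block with only the 2 groups was added after seeing the data.

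Replicate numbers have no stated meaning across groups. Deviations from group means correlated at 0.301, 0.332 and 0.126 in same-number pairs of KA+NBP and sham, all above 0.1, and KA+NBP 3 with sham 1, a pair of different numbers, at 0.192. Any pairing of those groups thus comes from the values alone and is not clean. Same-number pairs with KA ran from -0.0450 to 0.0447.

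The 32 members and the other lists were chosen with earlier results of these data known. All members are named. Of the other pathway lists, at most 4 genes with the smallest p in KA against sham are named. The lipoprotein receptors Lrp1, Lrp8 and Scarb1 are named besides. Marker genes are named only where a value turns on them. Counting intervals are not given. The p-values set differences of group means against the spread between mice, with the estimate of spread shared across genes. Promoter windows come from RefSeq on GRCm38.p6, and no coordinate was moved between builds. For Acat2, Insig2, Soat1 and Ch25h the deposited strand is plus, whereas their RefSeq windows lie on the minus strand. Whether this bears on their counts was not tested.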

Additional observations from a re-analysis of the deposited data

How the results depend on the processing

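No result for a member turned its called direction under any of the 17 alternatives. In KA against sham the 32 members gave 523 values on the same side of the threshold, 16 newly past it and 5 that lost it; in KA+NBP against KA they gave 508, 9 and 27, and in KA+NBP against sham 544 stayed without a call. In KA against sham 4961 genes were called, and 2721 to 6700 with 1 library left out, the lowest without sham replicate 1, 2762 without sham replicate 3 and the highest without KA+NBP replicate 2. Members called higher numbered 4 to 6 and members lower 1 to 4 with 1 library left out; limma-voom with library weights gave 4 lower members. Synthesis genes called lower numbered 0 to 2 with 1 library left out and 1 (Fdps) with limma-voom, and limma on FPKM called 1 higher (Pmvk, log2 fold change 0.22, adjusted p = 0.0255). In KA+NBP against KA 3355 genes were called, 6307 with limma-voom, 1065 with only the 2 groups, and 1295 to 6355 with 1 library left out, the highest without KA+NBP replicate 2; without any other KA+NBP library or any KA library the count was at most 2067. Members called higher numbered 2 with limma-voom, 0 with only the 2 groups and 0 to 2 with 1 library left out. Members called lower numbered 1 with only the 2 groups and 1 to 6 with 1 library left out, and synthesis genes called lower 0 to 1. In KA+NBP against sham 0 genes were called, 1 with DESeq2 and 0 to 1 with 1 library left out. The causes of these shifts were not tested.

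With the replicate number as a block in the fit of all 9 libraries, 4784 genes were called in KA against sham and 3189 in KA+NBP against KA; Cyp27a1 was added (log2 fold change 0.92, adjusted p = 0.0305) and no other call of a member changed. With the block and only the 2 groups, KA+NBP against KA gave 0 genes, with 0 members higher and 0 lower. In KA+NBP against sham, where same-number libraries correlated, the block gave 0 genes, as without it. Libraries of nearly equal depth and 3 mice per group limit small changes: the SEs of members run from 0.07 to 0.54 on the log2 scale, and Ch25h rests on 8 to 91 counts per library.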
